A study of Homo sapiens with 16 samples.

Results

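The RNAs described here are the expressed antisense and LINC (long intergenic noncoding) transcripts of cultured human skin fibroblasts, 341 of the 28374 genes in the count table. They were chosen by name and level: the symbol ends in -AS with or without a number, or begins with LINC and a number, and the mean over the 15 distinct libraries is at least 1 CPM (a gene's count scaled by the total of its library). Of the 2330 symbols of that form, 1989 had a lower mean. The members are 237 antisense RNAs and 104 LINC RNAs, and all 341 passed the filter on low counts and were tested. Since the level chose them, their levels are a description. Just inside the threshold lay B4GALT1-AS1 at 1.02 CPM, JMJD1C-AS1 at 1.02 CPM and LINC00959 at 1.01 CPM, and just outside it LINC01426 at 0.999 CPM, LINC00475 at 0.996 CPM and POT1-AS1 at 0.979 CPM.

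The cells were CCD-1070Sk, a line of normal human skin fibroblasts, and every group was starved of serum. The groups were EGF for 1 h (epidermal growth factor, 30 ng/ml, 3 libraries), TPA for 1 h (a phorbol ester that activates protein kinase C, 100 nM, 2 libraries), EGF for 1 h after 30 min of 10 µM H89 (EGF+H89, 2 libraries), TPA for 1 h after the same pretreatment (TPA+H89, 2 libraries), H89 alone (recorded as 30 min of pretreatment at 0 h, 3 libraries) and untreated control cells (3 distinct libraries). H89 inhibits the mitogen- and stress-activated kinases MSK1 and MSK2 and also protein kinase A. The time in H89 may differ between H89 alone and the groups that then received a mitogen. All groups are 1 cell line, nothing in the labels ties replicates to separate cultures, and p-values measure the spread between these libraries.

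An antisense RNA is transcribed from the strand opposite a gene, usually a protein gene after which it is named, and it may start near that gene's own promoter, run into its end or lie within it. A LINC RNA carries a number in place of a gene's name, and most, though not all, lie between coding genes. Most of these RNAs are spliced and carry a tail like messenger RNAs, many stay in the nucleus, and known members act as scaffolds, as decoys for small RNAs, as hosts of small nucleolar RNAs, or through the act of their transcription on a neighbouring gene. In fibroblasts growth factors switch on immediate-early genes within the first hour, and a short, quickly turned over RNA can follow that time course.

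Of the 341 members, 306 were matched by name to GENCODE v29, which lists 162 of them as antisense, 95 as lincRNA and 35 as processed transcripts. The others include 2 that this annotation holds as protein genes. LINC00674 and SVIL-AS1 are among the transcribed pseudogenes, whose reads could be shared with their parent genes. For 214 antisense RNAs the gene they are named after could also be placed. Their ends of transcription cross in 46 pairs, their starts overlap in 92, 1 gene lies inside or across the other in 46, their starts face each other within 5 kb without overlap in 29, and in 1 pair the ends face without overlap. In the 184 pairs that overlap, reads can be told apart only by strand. The libraries were strand-specific per the labels, while the strand setting of the counting is not given in the sources used here, so the counts of an overlapping antisense RNA may hold reads of its partner.

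The start regions of 5 members are shown because these were the members called for a treatment once library profiles, described further on, were included in the fit. They were chosen after their values were seen. Each sequence is from RefSeq on GRCh38.p14, 300 bases long and written 5′ to 3′ on the gene's own strand, with 250 bases before the annotated start in lower case and the first 50 transcribed bases in capitals. They lie at chr12:121802897-121803196 (minus strand) for LINC01089, chr14:37902075-37902374 (minus strand) for LINC00517, chr3:50100939-50101238 (minus strand) for RBM5-AS1, chr3:159768563-159768862 (minus strand) for IQCJ-SCHIP1-AS1 and chr10:1022387-1022686 (plus strand) for IDI2-AS1. The first 3 had lower counts with TPA and the last 2 had higher counts with TPA in the presence of H89.
LINC01089: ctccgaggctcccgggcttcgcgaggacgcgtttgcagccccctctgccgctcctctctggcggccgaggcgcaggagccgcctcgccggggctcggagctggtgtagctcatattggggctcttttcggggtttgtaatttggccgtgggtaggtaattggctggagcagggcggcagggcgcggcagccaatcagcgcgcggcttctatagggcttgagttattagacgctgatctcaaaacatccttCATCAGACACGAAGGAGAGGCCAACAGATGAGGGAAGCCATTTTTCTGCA
LINC00517: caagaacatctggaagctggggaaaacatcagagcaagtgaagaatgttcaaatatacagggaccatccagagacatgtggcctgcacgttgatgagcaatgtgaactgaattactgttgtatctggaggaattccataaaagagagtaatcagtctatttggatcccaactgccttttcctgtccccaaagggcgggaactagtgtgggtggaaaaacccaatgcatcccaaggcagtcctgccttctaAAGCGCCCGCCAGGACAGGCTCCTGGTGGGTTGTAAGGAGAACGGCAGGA
RBM5-AS1: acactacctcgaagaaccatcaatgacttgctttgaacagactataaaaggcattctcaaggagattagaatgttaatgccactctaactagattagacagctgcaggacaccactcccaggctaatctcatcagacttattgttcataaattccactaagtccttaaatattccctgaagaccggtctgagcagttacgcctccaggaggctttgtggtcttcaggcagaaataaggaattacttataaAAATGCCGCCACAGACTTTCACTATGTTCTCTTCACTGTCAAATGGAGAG
IQCJ-SCHIP1-AS1: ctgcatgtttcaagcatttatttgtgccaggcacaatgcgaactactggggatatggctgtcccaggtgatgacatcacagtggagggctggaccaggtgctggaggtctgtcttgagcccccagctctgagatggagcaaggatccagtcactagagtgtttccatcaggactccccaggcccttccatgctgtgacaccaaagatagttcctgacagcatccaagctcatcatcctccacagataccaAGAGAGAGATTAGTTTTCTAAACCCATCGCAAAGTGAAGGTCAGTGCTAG
IDI2-AS1: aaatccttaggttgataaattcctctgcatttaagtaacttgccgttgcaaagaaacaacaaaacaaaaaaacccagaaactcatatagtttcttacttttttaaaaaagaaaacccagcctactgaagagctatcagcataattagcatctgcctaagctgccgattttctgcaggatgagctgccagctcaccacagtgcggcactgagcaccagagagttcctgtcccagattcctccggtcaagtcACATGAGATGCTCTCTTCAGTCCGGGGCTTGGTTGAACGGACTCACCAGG
The LINC01089 and RBM5-AS1 regions differ in base composition, with 61.0% and 41.7% G or C. Both strands of these regions were searched for TGACGTCA (the cAMP response element), TGANTCA (the AP-1 site), GCGNGGGCG (an EGR site) and the CArG box of SRF, and 0 of the 5 held any of them, which says only that these letters are not in these windows. Among all 35116 RefSeq promoters of the same length, 1.85% held TGACGTCA, 7.71% TGANTCA, 9.43% GCGNGGGCG and 1.29% the CArG box. Among the 267 promoters of the 216 members matched by name, the shares were 2.25%, 5.99%, 14.6% and 0.749% in that order.

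Library totals ran from 7527026 counts in TPA+H89 1 to 130075914 in TPA 2. The columns of control 3 and control 4 did not differ at any gene, so that they counted as 1 library here. The libraries fell into 3 profiles by technical features of the counts. Profile A (EGF 1 and control 1) has more genes at 1 count than at 2 counts, profile B (EGF 2, TPA 1, EGF+H89 1, TPA+H89 1, H89 1 and control 2) has 11.7% to 30.4% of its counts at the ribosomal RNA symbols RNR1 and RNR2, and profile C is the other 7 libraries, with 0% there. The labels name 3 sequencing platforms without tying them to samples. All 10 fibroblast markers were expressed, with summed levels of 31662 to 64851 CPM, against at most 47.7 CPM for the keratinocyte list, 7.02 CPM for the endothelial list, 6.87 CPM for the melanocyte list and 2.83 CPM for the leukocyte list. Of 10 mitogen-induced protein genes read as a check of treatment, 3 were called higher with EGF and 9 with TPA. The members together held 0.223% to 0.288% of each library's counts, and the median member had 15 counts in the shallowest library and 294 in the deepest.

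The members' levels varied with the library profile, and 20 of them reached a mean of 1 CPM in a single profile. The 3 that did so in profile A had nearly all of their counts there. LINC00273 had 1962 counts in EGF 1, 721 in control 1 and 0 in each of the other 13 libraries. LINC00284 had 835 counts in EGF 1, 268 in control 1 and 2 in EGF+H89 2, and 0 elsewhere. LHFPL3-AS2, named after a tetraspan membrane protein gene, had 2080 counts in EGF 1 and 1362 in control 1, and 0 to 8 in the rest. These RNAs were present in both profile A libraries, one treated and one not, and close to absent from every other library of the same groups.

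LINC02067 stood apart in profile B. It had 3274 to 11117 counts in the 6 profile B libraries and 136 to 359 in the other 9, with mean levels of 341 CPM in profile B, 3.38 CPM in profile A and 3.75 CPM in profile C, all scaled by TMM (the trimmed mean of M values). In the annotation it overlaps the ribosomal protein pseudogene RPL23AP42 on the other strand and a second lincRNA on the same one. The share of counts at RNR1 and RNR2 is high in the same 6 libraries, and its part in the level of LINC02067 was not tested. Since every treatment group has 1 profile B library, its group means vary widely, with 173 ± 242 CPM with TPA and 103 ± 172 CPM in control cells (SD, n = 2 and 3).

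In a fit with a term for each group and each profile, 82 of 341 members were called lower in profile A than in profile C and 10 were called higher (edgeR's quasi-likelihood test, adjusted p under 0.05 by Benjamini-Hochberg over all tested genes), against 11.7% of all tested genes lower and 11.7% higher. The median log2 difference of the members was -0.61, with a median of -0.01 over all tested genes. With size factors in place of TMM these medians were -0.51 and 0.10. Among the 13479 tested genes with a mean of 1 CPM or more, the median with TMM was -0.12, with 14.8% lower and 9.92% higher. The rule favours RNAs that are low in profile A, because only 2 of the 15 libraries in its mean have that profile, and the count is therefore a description. Among genes far above the threshold, with a mean of 10 CPM or more, 15 of 50 members were lower and 1 was higher, beside 14.4% lower and 10.4% higher among 9309 such genes of all kinds. Of the LINC RNAs 31.7% were lower, of the antisense RNAs 20.7%, and of the 229 sense partners 13.5%. For the 49 antisense RNAs that were lower, the partner was called lower in 7 and higher in 2, and was not called in 40.

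The members low in profile A include RNAs with known roles. LINC01021, a p53-induced RNA also called PURPL, averaged 0.462 CPM in profile A, 9.22 CPM in profile B and 8.03 CPM in profile C, a log2 difference of -4.65 ± 0.44 (SE) between A and C. HAND2-AS1, which starts beside the gene of the transcription factor HAND2, averaged 0.57, 5.88 and 5.26 CPM in the same order, a log2 difference of -3.41 ± 0.42. OIP5-AS1, the conserved RNA Cyrano that binds microRNA miR-7, averaged 6.39, 19.9 and 17.5 CPM, with a log2 difference of -1.40 ± 0.29. LINC00998, which encodes the small membrane protein SMIM30, was lower by a smaller step, -1.03 ± 0.29. Higher in profile A were AGAP2-AS1 at 2.77 ± 0.47 and LRRC75A-AS1, a host of small nucleolar RNAs, at 1.18 ± 0.32.

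Between profiles B and C few members differed: 4 were called higher in B and 2 lower, against 1.2% and 0.883% of all tested genes. Besides LINC02067 at 6.52 ± 0.26, the higher ones were LINC01962 at 1.99 ± 0.41, LINC00960 at 1.64 ± 0.21 and LINC00643 at 0.98 ± 0.23, and the lower ones were LINC02256 at -2.17 ± 0.47 and AGAP2-AS1 at -1.77 ± 0.34. By the membership rule LINC01962 has a mean of 0.826 CPM without TPA+H89 1, a profile B library. LINC02256 reached 1 CPM only in profile C, with 3.38 CPM there and 0.515 CPM in B. The calls of LINC01962 and LINC02256 are therefore not independent of the rule. A mean of 1 CPM or more was reached in all 3 profiles by 244 members, in B and C but not in A by 65, and in a single profile by 3 (A), 2 (B) and 15 (C).

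**Figure D1:**
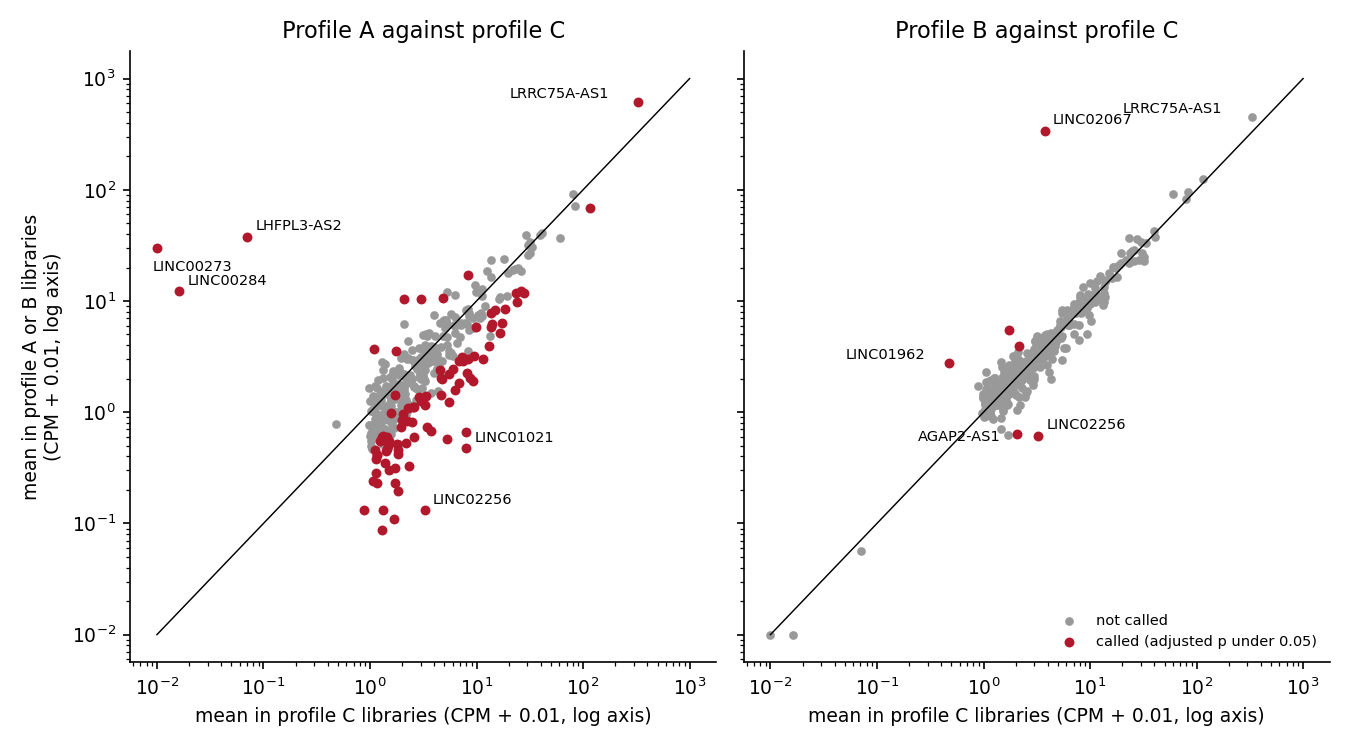
Mean level of each of the 341 RNAs in profile A (left) and profile B (right) on the vertical axis against profile C on the horizontal axis, in TMM-scaled CPM with 0.01 added, on log axes. Red points were called in edgeR's test of the profile term. In the left plot more red points lie under the line of equal level (82) than above it (10), with LINC00273, LINC00284 and LHFPL3-AS2 far above it; in the right plot LINC02067 is alone far above the line.

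Per kilobase of annotated exon, among the 306 members with an annotated length, LINC00674 and LRRC75A-AS1 had the highest levels, with mean levels of 113 and 109.9 CPM per kb, followed by LINC02067 at 41.9, FGD5-AS1 at 22.1, LINC00968 at 14.5 and LINC01397 at 11.2 CPM per kb. Below them the levels ran from 9.29 CPM per kb for NCBP2-AS2 to 0.0821 CPM per kb for TTN-AS1. The mean of LINC02067 came mostly from the 6 profile B libraries, with 341 CPM there and 3.38 and 3.75 CPM in profiles A and C. The lengths are those of GENCODE v29, and the gene models used for counting may differ. Without regard to length, 136 of the 341 members had a mean of 1 to 2 CPM. LRRC75A-AS1 had 677, 317 and 329 CPM with EGF, 407 and 168 with TPA, 369 and 394 with EGF+H89, 765 and 481 with TPA+H89, 418, 262 and 448 with H89 and 562, 418 and 230.2 in control cells. Its groups overlap, and both ends of its range are in TPA-treated cells, with TPA 2 lowest and TPA+H89 1 highest. MAGI2-AS3, an RNA that starts beside the scaffold protein gene MAGI2, had 125 and 91.3 CPM with TPA and 55.0, 70.2 and 77.6 in control cells, with the TPA libraries above the controls.

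The steadiest members were present at nearly one level in every library. LINC00674 ran from 67.5 to 110.4 CPM over the 15 libraries, 1.63-fold from lowest to highest, with control 2 lowest and TPA 1 highest. MSC-AS1 (1.68-fold), MBNL1-AS1 (1.76-fold), LINC00909 (1.80-fold) and NR2F1-AS1 (1.81-fold), named after a nuclear receptor gene, completed the 5 narrowest ranges. Over the 335 members with a count in every library, the median ratio of highest to lowest level was 4.36, and it was 3.51 over the profile B and C libraries and 2.57 over profile C alone. In all, 12 members kept within 2-fold over all 15 libraries, while 58 spanned more than 10-fold.

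With EGF none of the 341 members passed the test. The count was 0 higher and 0 lower by edgeR's quasi-likelihood test and by DESeq2. An unadjusted p under 0.05 in edgeR was reached by 5 members (1.47%) and by 1.63% of all tested genes. Of all tested genes 0.0269% were called higher and 0% lower. With the profile term edgeR's count of members was again 0 in both directions, against 0.221% and 0% of all tested genes. The median log2 fold change was 0.03 over the members and 0.02 over all tested genes. In bulk RNA, fewer cells of a type and less RNA per cell cannot be told apart.

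The 5 members of lowest p with EGF were all antisense RNAs. MAP3K14-AS1, which overlaps the end of the gene of the NF-kappaB-inducing kinase, had 1.58, 2.99 and 3.51 CPM with EGF and 1.41, 0.42 and 1.37 in control cells. All EGF libraries were above all controls, and the log2 fold change was 1.31 ± 0.45 (SE; adjusted p = 1.0, edgeR's quasi-likelihood test). The kinase gene itself had a log2 fold change of 1.56 ± 0.36 with adjusted p = 0.447 by the same edgeR test, and the same adjustment with the profile term gave 1.59 ± 0.33 and 0.068.

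GLIS2-AS1, named after a zinc finger transcription factor gene, had 0.112, 3.13 and 1.98 CPM with EGF and 0.13, 0.42 and 0.224 in control cells. EGF 2 and EGF 3 were well above every control and EGF 1, of profile A, was below them. GLIS2-AS1 has a mean of 1.07 CPM by the membership rule and 0.94 CPM without EGF 2, so its high libraries made it a member. Its log2 fold change was 2.81 ± 0.97, with within-profile differences of -0.12 in A, 2.63 in B and 2.68 in C (log2 of CPM with 0.1 added). IDI2-AS1, whose start overlaps that of an isoprenoid isomerase gene, had 1.09, 1.49 and 0.532 CPM with EGF and 0.434, 0.30 and 0.423 in control cells, a log2 fold change of 1.39 ± 0.52 with no overlap between the groups. ST7-AS1 gave 1.13 ± 0.51 and KIF9-AS1 -0.84 ± 0.35, the only one of the 5 with lower counts in EGF-treated cells. Groups did not overlap for 12 members above and 11 below the controls, against 2.97% and 1.99% of all tested genes, which is 3.52% and 3.23% of the members.

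With TPA again 0 of 341 members passed in either direction by edgeR's quasi-likelihood test, against 0.388% of all tested genes called higher and 0.0269% lower. DESeq2 called 6, namely ADAMTSL4-AS1, IQCJ-SCHIP1-AS1, GDNF-AS1, SLC2A1-AS1, TMEM9B-AS1 and CD27-AS1. An unadjusted p under 0.05 in edgeR was reached by 51 of the 341 members, against 13.2% of all tested genes. The median log2 fold change was -0.08 over the members and -0.02 over all tested genes, and 39 members (11.4%) had a log2 fold change over 1 and 35 (10.3%) under -1, against 9.13% and 17.8% of all tested genes. Only 13479 of the 18575 tested genes have a mean of 1 CPM or more, as every member does. The shares of all tested genes here and in the other comparisons therefore include genes of lower level. With a term for the library profile in the fit, the median was -0.23 over the members and 0.02 over all tested genes, and the balance of the members turned, with 33 (9.68%) over 1 and 55 (16.1%) under -1, against 10.3% and 13.4% of all tested genes. All TPA libraries were above all controls for 31 members (9.6% of all tested genes did so, and 9.09% of the members) and below them for 53 (10.1% of all tested genes, and 15.5% of the members). The TPA libraries differ from each other. Without TPA 1 the only TPA library is TPA 2, whose spread would be assumed from the other groups. The count of that fit is therefore not read as a result and is listed only with the other settings.

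GDNF-AS1, which lies across the gene of the glial cell line-derived neurotrophic factor, had 0.929 and 5.04 CPM with TPA and 0.652, 0.36 and 0.448 in control cells. GDNF-AS1 is a member only through TPA 2, since its mean by the membership rule is 1.11 CPM and 0.85 CPM without that library, so the values chose it in part. Both TPA libraries were above every control, TPA 2 far more so than TPA 1, and the log2 fold change was 2.60 ± 0.64 (adjusted p = 0.139, edgeR's quasi-likelihood test). GDNF itself passed that edgeR test, with 7.65 and 13.1 CPM with TPA, 2.28, 0.78 and 1.82 CPM in control cells and a log2 fold change of 2.65 ± 0.48 (adjusted p = 0.0335). It was the 1 sense partner called in the 10 comparisons without the profile term, and the pair overlaps, so the counts of GDNF-AS1 may hold reads of GDNF.

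TMEM9B-AS1, beside the start of a lysosomal membrane protein gene, had 0.341 and 0.735 CPM with TPA and 1.93, 1.56 and 2.29 in control cells, a log2 fold change of -1.81 ± 0.46 (adjusted p = 0.157, edgeR). CD27-AS1, named after a lymphocyte receptor gene, had 4.46 and 4.4 CPM with TPA and 9.17, 8.28 and 11.6 in control cells, a log2 fold change of -1.13 ± 0.31 (adjusted p = 0.204, edgeR). In both, the TPA libraries lay below all controls, and for CD27-AS1 they nearly coincided. ADAMTSL4-AS1, at the end of a microfibril protein gene, had 6.85 and 4.47 CPM with TPA and 1.24, 1.14 and 1.07 in control cells, a log2 fold change of 2.29 ± 0.64 with the TPA libraries above all controls. IQCJ-SCHIP1-AS1 had 2.73 and 4.56 CPM with TPA and 0.456, 0.96 and 0.921 in control cells, a log2 fold change of 2.24 ± 0.63, again without overlap.

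When a term for the library profile was added to the edgeR fit, 3 members were called lower with TPA and 0 higher, against 0.307% and 0.948% of all tested genes. LINC01089, also called LIMT and known from human mammary cells as an RNA that EGF represses, had 5.11 and 3.5 CPM with TPA and 6.08, 12.9 and 12.1 in control cells. The TPA libraries were below all controls, and its log2 fold change with the term was -1.50 ± 0.30 (adjusted p = 0.0203, edgeR). Within profiles the difference was -1.32 in B and -1.76 in C (1 library a side, log2 of CPM with 0.1 added). RBM5-AS1, which lies inside or across the gene of a splicing regulator, had 3.9 and 1.41 CPM with TPA and 3.63, 10.1 and 10.6 in control cells, where control 1 of profile A fell between the TPA libraries. Its log2 fold change with the term was -2.34 ± 0.53 (adjusted p = 0.0412, edgeR), with -1.35 in B and -2.82 in C, and that of RBM5 was -0.16 ± 0.23.

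LINC00517 had 0.248 and 0.215 CPM with TPA and 0.673, 2.34 and 1.22 in control cells, a log2 fold change with the term of -3.10 ± 0.67 (adjusted p = 0.0291, edgeR). Its TPA libraries held 8 and 26 counts, and both lay below every control, with a difference of -2.81 within B and -2.07 within C. Without the term, the log2 fold changes of LINC01089, RBM5-AS1 and LINC00517 were -1.27 ± 0.42, -1.61 ± 0.83 and -2.58 ± 0.89. When both profile A libraries were left out and the term kept, LINC01089 was the 1 member called. Under EGF, LINC01089 had 6.0, 9.99 and 7.82 CPM, which overlaps the controls. Each EGF library was below the control of its own profile, barely so in profile A, and LINC01089 was not called with EGF.

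**Figure D2:**
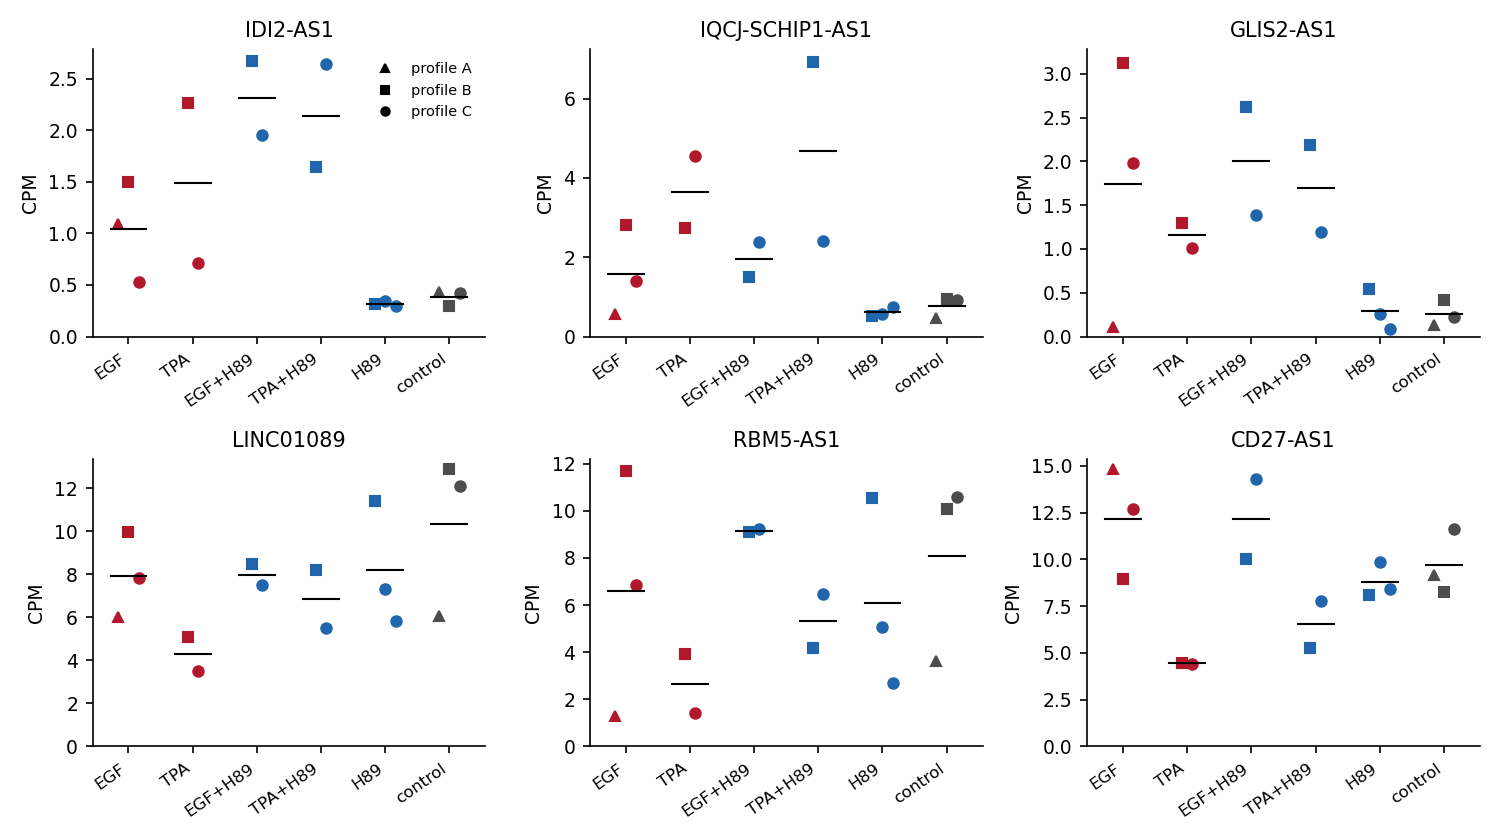
TMM-scaled CPM of 6 members in every library (linear axis from 0), by treatment group, with the group mean as a line and the library profile as the marker shape. IDI2-AS1, IQCJ-SCHIP1-AS1 and GLIS2-AS1 are low in H89 and control cells, the last 2 also in EGF 1, and LINC01089 and CD27-AS1 are lowest in the 2 TPA libraries. For RBM5-AS1 the profile A libraries EGF 1 (1.27 CPM) and control 1 (3.63 CPM) are as low as the TPA libraries.

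**Figure D3:**
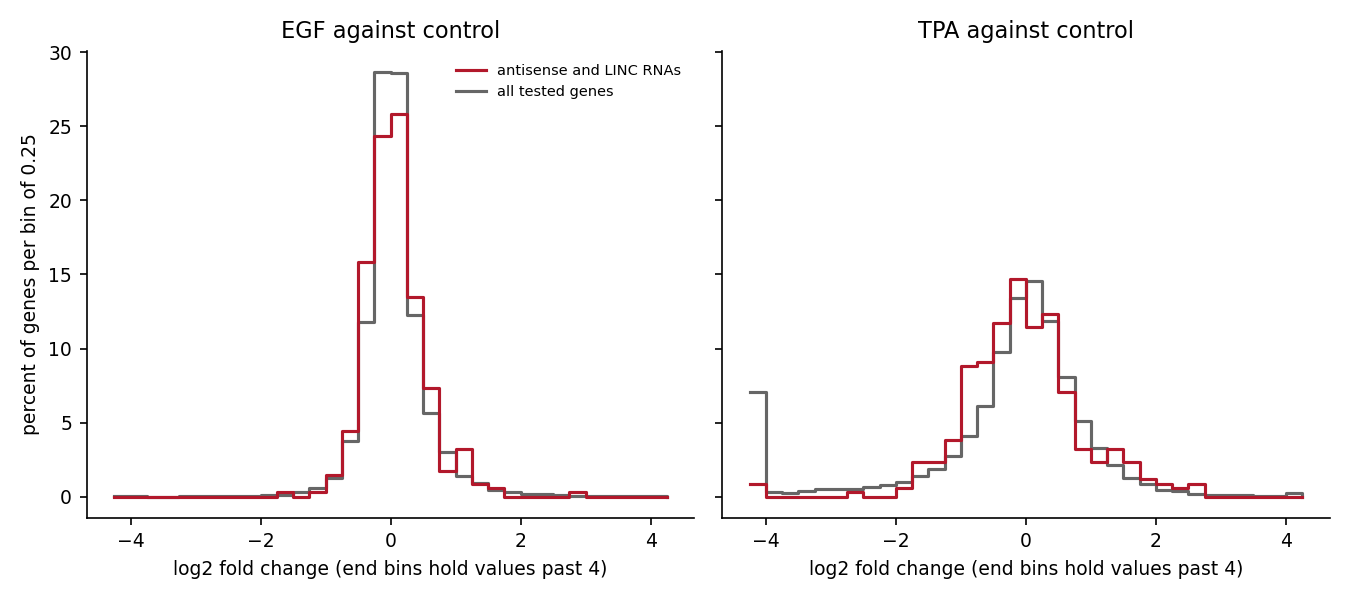
Percent of the 341 members (red) and of all 18575 tested genes (grey) in each bin of log2 fold change, 0.25 wide, for EGF against control (left) and TPA against control (right), from edgeR without the profile term. Both sets centre near 0, with medians of 0.03 and 0.02 for EGF and -0.08 and -0.02 for TPA. The lowest bin for TPA, which gathers values under -4, holds 0.88% of the members and 7.05% of all tested genes. Of the tested genes 13479 have a mean of 1 CPM or more, as every member does, so the sets differ in level.

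H89 alone called 0 of 341 members higher and 0 lower by edgeR's quasi-likelihood test and 0 by DESeq2, against 0% of all tested genes in both directions. An unadjusted p under 0.05 in edgeR was seen for 7 members (2.05%), against 3.27% of all tested genes. With the profile term 0 members were called, and 21 (6.16%) had an unadjusted p under 0.05, against 1.87% of all tested genes. The median log2 fold change with the term was -0.20 over the members and -0.01 over all tested genes. Without the term these medians were -0.04 and -0.05. ARRDC3-AS1, which starts beside the gene of an arrestin-like adaptor, had 1.33, 1.36 and 0.988 CPM with H89 and 3.45, 2.4 and 1.57 in control cells, a log2 fold change of -1.01 ± 0.35 with all H89 libraries below all controls. NFYC-AS1, named after a subunit of the CCAAT-binding factor, gave -1.14 ± 0.47, LINC00959 -0.96 ± 0.41 and LINC00565 0.92 ± 0.39, also without overlap of the groups. All H89 libraries were above all controls for 8 members and below them for 16, against 2.85% and 4.25% of all tested genes. LHFPL3-AS2 also had a low p here, with 1362 counts in control 1 and 0 to 8 in the other libraries of both groups: its log2 fold change was -7.12 ± 2.80 without the profile term and 1.33 ± 1.02 with it.

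In the presence of H89 no member passed the test with EGF. EGF+H89 against H89 gave 0 higher and 0 lower by edgeR's quasi-likelihood test, against 0.0269% and 0% of all tested genes. At an unadjusted p under 0.05 were 12 members (3.52%), against 1.53% of all tested genes, and DESeq2 called 1, IDI2-AS1. IDI2-AS1 is a member through the libraries with a mitogen: its mean by the rule is 1.14 CPM, against 0.368 CPM over the H89 and control libraries, so the separation and the calls given for it are not independent of the rule. This RNA had 2.67 and 1.96 CPM with EGF+H89 and 0.313, 0.348 and 0.297 CPM with H89 alone. The H89 libraries were nearly equal and the EGF+H89 libraries far above them, with a log2 fold change of 2.84 ± 0.56 (adjusted p = 0.244, edgeR). With the profile term edgeR called 0 members, against 0.269% and 0% of all tested genes. The adjusted p of IDI2-AS1 was then 0.0549 in edgeR, and its sense partner IDI2 had a log2 fold change of -0.46 ± 0.43. IDI2-AS1 was also the 1 member called when control 1, EGF 1 and TPA 2 were left out of edgeR's fit, and when that fit held only EGF+H89 and H89.

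GLIS2-AS1 had 2.62 and 1.39 CPM with EGF+H89 and 0.548, 0.253 and 0.0847 with H89, a log2 fold change of 2.82 ± 1.00. MAP3K14-AS1 had 3.21 and 2.31 CPM with EGF+H89 and 1.21, 0.934 and 1.0 with H89, a log2 fold change of 1.39 ± 0.49, and its partner MAP3K14 1.15 ± 0.39. Neither pair of groups overlapped, and the adjusted p of both RNAs was above 0.05. All EGF+H89 libraries were above all H89 libraries for 68 members and below them for 33, 19.9% and 9.68% of the members, against 10.7% and 11.9% of all tested genes. The median log2 fold change was 0.11 over the members and -0.02 over all tested genes.

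TPA+H89 against H89 likewise gave 0 members higher and 0 lower by edgeR's quasi-likelihood test, against 0.0969% and 0% of all tested genes. At an unadjusted p under 0.05 were 17 members (4.99%), against 3.89% of all tested genes. DESeq2 called 3, IQCJ-SCHIP1-AS1, ARRDC3-AS1 and IDI2-AS1. With the profile term edgeR called 2 members higher, IQCJ-SCHIP1-AS1 and IDI2-AS1, and 0 lower, against 0.431% and 0% of all tested genes. The same 2 were called when control 1, EGF 1 and TPA 2 were left out. All TPA+H89 libraries were above all H89 libraries for 42 members and below them for 37, against 9.92% and 10.9% of all tested genes.

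IQCJ-SCHIP1-AS1 lies inside or across a gene that joins an IQ motif protein to the schwannomin-interacting protein SCHIP1. Its mean by the rule is 1.85 CPM, against 0.712 CPM over the H89 and control libraries, so the libraries with a mitogen made it a member too. It had 6.92 and 2.41 CPM with TPA+H89 and 0.509, 0.57 and 0.748 with H89, and its log2 fold change was 2.89 ± 0.65 without the profile term and 2.77 ± 0.53 with it (adjusted p = 0.253 and 0.024, edgeR). TPA+H89 1, the shallowest library, held 38 of its counts and the highest level. The difference was 3.53 within B and 1.74 within C (log2 of CPM with 0.1 added). IDI2-AS1 had 1.64 and 2.65 CPM with TPA+H89 and 0.313, 0.348 and 0.297 with H89, with log2 fold changes of 2.77 ± 0.57 without the term and 2.77 ± 0.55 with it (adjusted p = 0.144 and 0.0309, edgeR). The difference was 2.07 within B and 2.70 within C, and TPA+H89 1 held 9 counts of it.

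ARRDC3-AS1 had 4.56 and 3.47 CPM with TPA+H89 and 1.33, 1.36 and 0.988 with H89, a log2 fold change of 1.70 ± 0.38 (adjusted p = 0.256, edgeR) with no overlap. Its partner ARRDC3 gave 0.67 ± 0.42. The H89 libraries serve as the comparison for both mitogens here, and the results for both rest on them.

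For H89 on top of a mitogen no member passed the test. EGF+H89 against EGF gave 0 higher and 0 lower by edgeR's quasi-likelihood test and 0 by DESeq2, against 0% of all tested genes in both directions. At an unadjusted p under 0.05 in edgeR were 5 members (1.47%), against 1.67% of all tested genes. LINC01355 had 0.0904 and 0.462 CPM with EGF+H89 and 0.736, 3.6 and 2.72 with EGF, a log2 fold change of -2.99 ± 1.08 without overlap. LINC00312 had 1.63 and 1.69 CPM with EGF+H89 and 1.41, 7.42 and 4.93 with EGF, a log2 fold change of -1.46 ± 0.59, where EGF 1 of profile A was below both EGF+H89 libraries. RDH10-AS1, which overlaps the end of a retinol dehydrogenase gene, gave -1.66 ± 0.63 and TAPT1-AS1 -0.95 ± 0.43. LHFPL3-AS2 had a low p here too, with 2080 counts in EGF 1 and 0 to 2 in the other EGF and EGF+H89 libraries. All EGF+H89 libraries were above all EGF libraries for 36 members and below them for 18, against 7.6% and 10.1% of all tested genes.

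TPA+H89 against TPA gave 0 higher and 0 lower by edgeR's quasi-likelihood test and 0 by DESeq2, against 0% of all tested genes in both directions. At an unadjusted p under 0.05 in edgeR were 22 members (6.45%), against 7.00% of all tested genes. The count without TPA 1 is listed only with the other settings and not read as a result, since TPA 2 is then the only TPA library. RARA-AS1, named after a retinoic acid receptor gene, had 2.37 and 2.95 CPM with TPA+H89 and 3.5 and 12.9 with TPA, a log2 fold change of -1.61 ± 0.55, and RARA itself gave -1.27 ± 0.72. ATP2B1-AS1, named after a calcium pump of the plasma membrane, gave -1.45 ± 0.53. Higher values were seen for ZSCAN16-AS1, with 15.7 and 3.71 CPM with TPA+H89 and 2.29 and 1.72 with TPA, a log2 fold change of 2.25 ± 0.76. LINC00324 gave 1.98 ± 0.76 and RAB30-AS1 1.75 ± 0.68. In all 5 the groups do not overlap, and in the 3 with higher values the shallow TPA+H89 1 is above TPA+H89 2. All TPA+H89 libraries were above all TPA libraries for 58 members and below them for 37, against 10.6% and 11.1% of all tested genes.

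TPA against EGF gave 0 members higher and 0 lower by edgeR's quasi-likelihood test, against 0% of all tested genes in both directions. At an unadjusted p under 0.05 were 40 members (11.7%), against 13.4% of all tested genes. DESeq2 called 2 lower, TMEM9B-AS1 and CD27-AS1. With the profile term edgeR called 0, against 0.205% of all tested genes higher and 0.129% lower. The median log2 fold change with the term was -0.26 over the members and -0.01 over all tested genes. Without the term these medians were -0.09 and -0.03. CD27-AS1 had 4.46 and 4.4 CPM with TPA and 14.8, 8.96 and 12.7 with EGF, a log2 fold change of -1.46 ± 0.32 (adjusted p = 0.272, edgeR). TMEM9B-AS1 had 0.341 and 0.735 CPM with TPA and 1.49, 2.15 and 1.89 with EGF, a log2 fold change of -1.74 ± 0.46. In both, the TPA libraries were below all EGF libraries. TTC28-AS1 gave -1.09 ± 0.35 and LINC00339 -1.40 ± 0.45, while PIK3CD-AS2, named after a catalytic subunit of phosphoinositide 3-kinase, gave 1.70 ± 0.50 with TPA 2 far above TPA 1. All TPA libraries were above all EGF libraries for 18 members and below them for 45, against 9.71% and 11.1% of all tested genes.

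The difference between the mitogen's effect with H89 and without it was tested as an interaction. For EGF and for TPA edgeR's quasi-likelihood test called 0 of 341 members in either direction, against 0% of all tested genes, and DESeq2 called 0 in both. An unadjusted p under 0.05 in edgeR was seen for 1 member with EGF (0.293%, against 0.258% of all tested genes). With TPA it was seen for 16 (4.69%, against 4.78%). The TPA count without TPA 1 is listed only with the other settings and not read as a result, since the TPA group is then 1 library. The lowest p-values belonged to LINC00959 at 1.35 ± 0.60 for EGF and LINC00324 at 2.68 ± 0.96 for TPA (log2 scale, SE). IDI2-AS1 had an interaction of 1.45 ± 0.75 for EGF, so its response to EGF was not shown to differ between cells with H89 and cells without it.

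Sense partners gave a second view of the 237 antisense RNAs. The gene named in the symbol was in the table for 235 of them and tested for 233. The antisense RNA was usually the less abundant by count: the median log2 ratio of antisense RNA to partner, not adjusted for length, lay between -3.70 and -2.92 over the 15 libraries, and the antisense RNA was above its partner in 31 to 41 pairs. Across the 233 pairs the log2 fold changes of antisense RNA and partner had a Pearson correlation of 0.27 for EGF and 0.27 for TPA against control and of 0.31 for H89 against control, as a description across genes that share libraries and, where they overlap, may share reads. They had the same sign in 136, 136 and 132 pairs. IQCJ-SCHIP1 and LHFPL3, the partners that were not tested, had counts at or near 0.

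**Figure D4:**
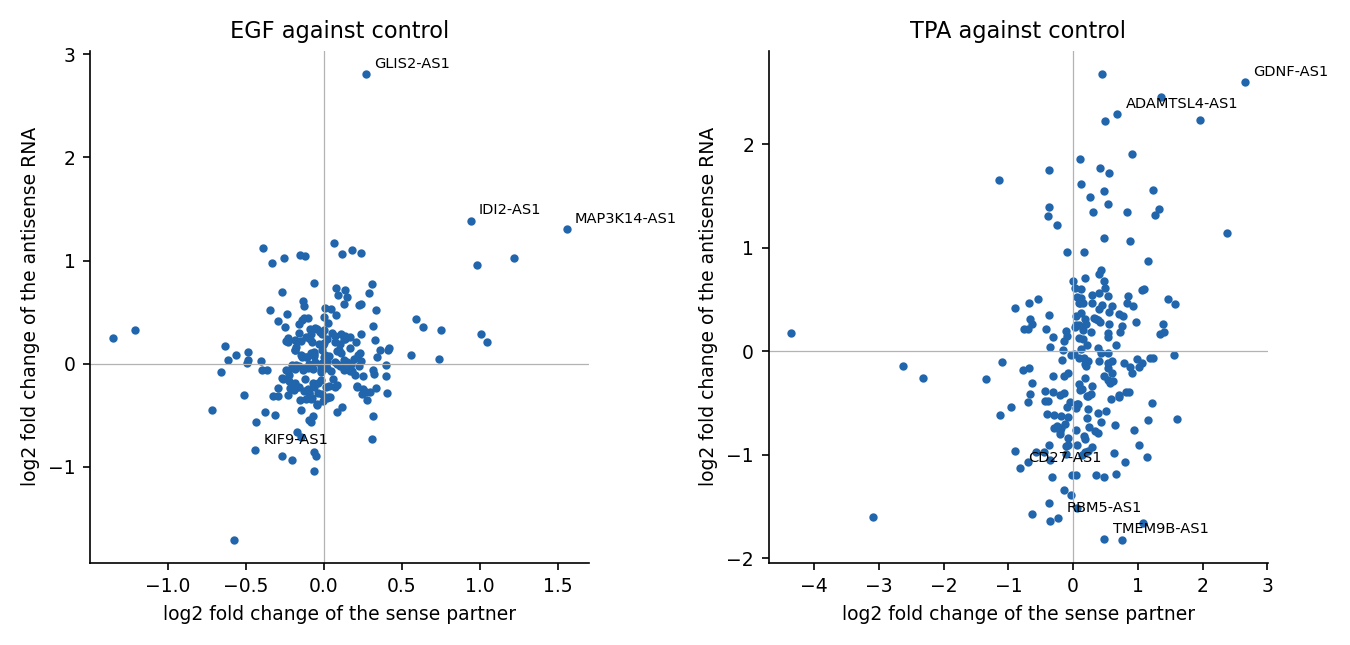
Log2 fold change of each antisense RNA (vertical axis) against that of its sense partner (horizontal axis) over 233 pairs, for EGF (left) and TPA (right) against control, from edgeR without the profile term. The points form a broad cloud around 0 with Pearson correlations of 0.27 in both; GDNF-AS1 and MAP3K14-AS1 lie with their partners at the upper right, while GLIS2-AS1 is high with its partner near 0.

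Of 42 antisense and LINC RNAs listed for a studied role, 17 are members, and 0 of the 17 passed edgeR's test in any treatment comparison. CDKN2B-AS1, the RNA ANRIL of the INK4 locus, had 2.39, 2.24 and 2.48 CPM with EGF, 1.39 and 2.12 with TPA and 1.89, 1.44 and 2.17 in control cells, with the EGF libraries above all TPA and control libraries and overlap between TPA and control. BDNF-AS is antisense to the gene of the brain-derived neurotrophic factor. It had 7.0 and 2.19 CPM with TPA, 10.4 and 2.11 with TPA+H89 and 1.52, 1.26 and 4.68 in control cells. TPA 1 and TPA+H89 1, both of profile B, were above the other library of each group. Among the controls, control 2 of profile B was the lowest. ZEB1-AS1, beside the gene of a regulator of mesenchymal identity, had 2.08 and 0.868 CPM with TPA and 1.89, 3.3 and 3.44 in control cells, which overlap. FGD5-AS1 had 109 and 88.3 CPM with TPA and 64.5, 145 and 117 in control cells, where control 1 of profile A is the lowest.

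Of 31 long noncoding RNAs with other names, such as MALAT1, NEAT1 and the small nucleolar RNA hosts, 30 were tested. Without the profile term 1 was called in the treatment comparisons, MIR17HG, the host of the miR-17-92 microRNAs, which was higher in TPA+H89 than in H89 cells by 2.70 ± 0.39 on the log2 scale (adjusted p = 0.0257, edgeR). With the term, MIR22HG (1.17 ± 0.23) and MIR17HG (1.81 ± 0.31) were called higher with EGF, and SNHG1 (-1.21 ± 0.26) and SNHG3 (-1.46 ± 0.31) lower with TPA. MIR17HG was also higher in EGF+H89 than in H89 cells (1.93 ± 0.34), and SNHG3 lower with TPA than with EGF (-1.70 ± 0.31).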

How the data were processed

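The data are the authors' deposited table of whole-number read counts per gene for ribosomal RNA-depleted total RNA, made on hg19 (GRCh37) and with HOMER per the submitters' processing notes. How the counting treated strand and multi-mapped reads was not stated. Library totals of 7527026 to 130075914 set the precision. Counts were analysed with edgeR 4.0.16 (TMM scaling, the default low-count filter with a smallest count of 10, quasi-likelihood test) in R 4.3.3, all 6 groups in 1 model, with Benjamini-Hochberg adjustment over the 18575 tested genes at 0.05. Each ± is an SE unless named otherwise. Levels per library are TMM-scaled CPM, while the membership rule used unscaled CPM. Alternatives were DESeq2 1.42.0, its size factors, other filters, a library profile term and left-out libraries. Names, gene types, exon lengths and orientation came from GENCODE v29, and start regions from RefSeq, both on GRCh38, so they were joined by name only. Named genes were the 5 members of lowest p in a comparison, those called with the profile term, the 10 of highest mean, those differing most between profiles, listed members with a studied role, and sense partners. Others outside these were named after their values were seen. They include SLC2A1-AS1, called by DESeq2, HAND2-AS1 and LINC00998, called in the test of the profiles, and members high per kilobase or steady over the libraries. The members and lists were chosen with earlier results of these data known. The scripts were tested on simulated counts.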

Additional observations from a re-analysis of the deposited data

How the results depend on the processing

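In the edgeR fit reported above, the count of members called was 0 in all 10 comparisons. Of the summary values recomputed under other settings 263 stayed the same and 25 moved. A count of 0 stayed the same only if it was again 0, and other values if they were within 1.5 times of the reported one. The 263 include fits that left out a library outside the compared groups. For TPA against control the count was 6 with DESeq2, 1 with both copies of control 3 (GDNF-AS1), 3 with the profile term, 1 with that term and both profile A libraries left out (LINC01089), and 24 with DESeq2 and the term, 6 higher and 18 lower. For TPA+H89 against H89 it was 3 with DESeq2, 2 with the term, 2 without control 1, EGF 1 and TPA 2, and 4 with DESeq2 and the term. For EGF+H89 against H89 it was 1 (IDI2-AS1) with DESeq2, with only the compared groups, and without control 1, EGF 1 and TPA 2, and it was 2 with DESeq2 and the term. For TPA against EGF it was 2 with DESeq2 and 18, all lower, with DESeq2 and the term. DESeq2 with the term also called 1 member for EGF against control, 2 for EGF+H89 against EGF and 2 for TPA+H89 against TPA. Except for edgeR's profile term over all libraries, the shares of all tested genes called under these settings are not given here. These counts are therefore not read as particular to the members. The cause of the differences between settings was not tested. Leaving out 1 library at a time gave 0 to 20 for TPA against control, 0 to 9 for TPA+H89 against TPA, 0 to 14 for TPA against EGF and 0 to 1 for the TPA interaction, each highest without TPA 1, and 0 in the other 6 comparisons. Without TPA 1 the TPA group is 1 library, assumed to vary like the other groups. The counts without TPA 1 are therefore not read as results, and the shares of all tested genes in those fits are not given. LHFPL3-AS2 reversed in H89 against control, to 1.33 with the term and 1.27 with DESeq2 and the term, from -7.12. A threshold of 2 CPM left 205 members, and leaving out 1 library gave 333 to 344. Between profiles B and C, where 6 members were called, 16 were called with no filter and 10 with DESeq2. The shares of all tested genes in those fits are not given here either. No paired analysis was possible because the labels give running sample numbers and tie no sample of one group to a sample of another, and the profile term is a block read from the counts. Depth limits the members most in TPA+H89 1, with a median of 15 counts.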
